A study of Mus musculus with 2 samples.

Results

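The BMP ligands Bmp2, Bmp4, Bmp6, Bmp7 and Gdf5 and the BMP receptors Bmpr1a, Bmpr1b, Bmpr2, Acvr1 and Acvr2a were followed in loaded mouse chondrocytes. These 10 genes were taken by name out of 20660 genes on the array, and their probes were found through the RefSeq transcript accession that the array gives for each probe. They had 15 probes of 55678 in all. The primary articular chondrocytes came from C57BL/6J mice, 6-day-old, were isolated with collagenase D and grew on fibronectin in chambers that can be stretched. One sample was taken before loading. The other was taken 24 h after loading by cyclic tensile strain, 30 min of stretching by 10% elongation at a frequency of 0.5 Hz, begun 48 h after seeding. Each time point was measured on 1 one-colour array with total RNA labelled with Cy3. A single array per time point gives no replicate check, so the differences carry neither a test nor a p-value. An unloaded culture kept for the same day was not analysed here, and therefore loading and the added day in culture cannot be told apart. The RNA came from a whole culture, in which fewer cells of a type and less RNA per cell cannot be told apart.

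Bone morphogenetic proteins are secreted dimers of the TGF-β superfamily. They bring together type I and type II serine/threonine kinase receptors, and the type I receptor then phosphorylates Smad1, Smad5 and Smad9, which enter the nucleus with Smad4. In cartilage, this pathway drives chondrogenesis, matrix production and the maturation of growth plate chondrocytes, and secreted antagonists such as gremlin-1 and noggin hold the ligands away from their receptors.

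Bmp4 and Gdf5 were higher and Bmp7 was lower 24 h after loading, while the remaining ligands and all receptors differed little between the arrays. The intensity of Bmp4 was 2.42-fold higher, that of Gdf5 1.77-fold higher and that of Bmp7 1.62-fold lower. Bmp4 was the only gene of the 10 that differed by more than 2-fold. Intensities here are the scanner software's background-subtracted signals. A log2 ratio is the value at 24 h less the value before loading, with each array set to its 75th percentile. Its error combines the software's error of both spots, which covers within-array error only. For bright spots this error is the software's allowance of 10.0% of the signal on each array, which gives 0.20 on the log2 scale, and not a spread between samples. As a measured spread within arrays, repeated spots of 1 probe had a median SD of 0.09 in their log2 ratios, over 264 probes with at least 8 spots.

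Both arrays held 59305 spots other than controls, of which 57.7% to 59.1% were well above background and 0 were saturated. Cartilage markers were present: all 10 listed chondrocyte markers lay well above background at either time, and the intensity of Col2a1 was 499543 before and 474876 after loading. Of the 10, 0 passed 2-fold, and their log2 ratios ran from -0.82 for Col11a1 to 0.56 for Matn1. All 5 hypertrophic markers were lower at 24 h, and their summed intensity was 23942 before loading and 9635 at 24 h. Col10a1 (-1.54), Ihh (-1.30) and Ibsp (-2.06) passed 2-fold on the log2 ratio scale. Of the 5 fibroblast markers, 0 passed 2-fold, and their summed intensity was 132770 before loading and 133723 at 24 h. The summed intensity of the 3 adipocyte markers went from 1612 to 2376, with log2 ratios of 2.29 for Adipoq, 0.95 for Fabp4 and -0.27 for Pparg. The 3 macrophage markers on the array summed to 3723 and 3393, of which Csf1r made up 3646 and 3288. The log2 ratio of Csf1r was -0.15 on this probe and 0.20 and 0.27 on its 2 other detected probes. Adgre1 had 0.09, and -0.08 on its other detected probe. Ptprc had a log2 ratio of 1.14 at intensities of 20.9 and 46.1, with 6 neighbouring spots that were also more than 2-fold higher. The 4 endothelial markers summed to 12894 and 12520, of which Kdr made up 12774 and 12375, while Cdh5 and Tek were not well above background. The 2 osteoblast markers on the array were dim, with a log2 ratio of -0.64 for Sp7 and with Dmp1 not well above background. The 3 tendon markers summed to 2668 and 2094, the 3 erythroid markers to 73.0 and 72.9, with Hbb-bt and Alas2 not well above background, and the 4 skeletal muscle markers to 259 and 378, with 3 of them not well above background. The part of these shifts in the results for BMP genes was not tested.

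**Figure D1:**
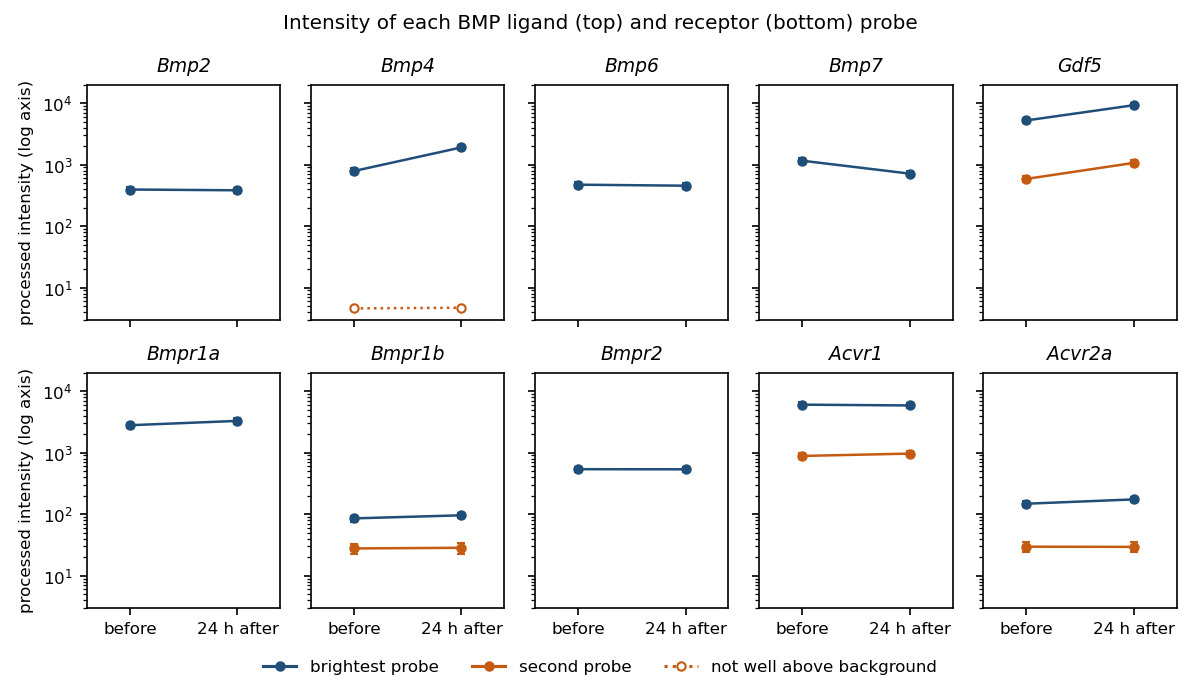
Processed intensity (log axis) of every probe of the 5 BMP ligands (top) and 5 BMP receptors (bottom) before and 24 h after loading, with bars for the scanner software's error of the spot. The lines of Bmp4 (786 to 1901) and of both Gdf5 probes rise, that of Bmp7 (1156 to 713) falls, and the others are nearly flat.

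Bmp4, a ligand that induces cartilage and bone, gave the largest difference of the 10 genes. Probe A_55_P2154387, for transcript NM_007554, went from an intensity of 786 to 1901 over the 24 h. Its log2 ratio was 1.28 (within-array error 0.20). The intensity at 24 h was thus above that before loading by 6.2 times the within-array error of the ratio. By log2 ratio, Bmp4 ranked 36 of the 14222 detected genes, those well above background at both times, and 8 of the 8564 genes among them whose mean lay above the 75th percentile.

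Bmp4 also had a second probe for the same transcript, A_55_P1959022, which stayed under the background flag at both times, with intensities of 4.6 and 4.7. It gives no ratio, and the difference in Bmp4 therefore rests on a single probe with a single spot per array. Of the 27 spots within 100 µm of the brighter Bmp4 spot, 2 were higher and 0 lower by more than 2-fold, and the median log2 ratio of these neighbours well above background on at least 1 array was 0.04.

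The 250 bases before the annotated start of Bmp4, the ligand that differed most, and of Bmp6, a ligand whose intensities of 471 and 454 were level, are shown because they are the 2 ligands with an entry in the RefSeq promoter table of GRCm38.p6. Of the 10 genes, 7 have an entry. Capitals mark CpG dinucleotides. Bmp4 is at chr14:46390670-46390919 on the minus strand and Bmp6 at chr13:38345466-38345715 on the plus strand.
Bmp4: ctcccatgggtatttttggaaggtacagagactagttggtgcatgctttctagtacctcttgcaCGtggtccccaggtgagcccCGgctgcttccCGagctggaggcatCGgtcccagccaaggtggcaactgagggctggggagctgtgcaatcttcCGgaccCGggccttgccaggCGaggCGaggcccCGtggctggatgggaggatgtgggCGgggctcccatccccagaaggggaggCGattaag
Bmp6: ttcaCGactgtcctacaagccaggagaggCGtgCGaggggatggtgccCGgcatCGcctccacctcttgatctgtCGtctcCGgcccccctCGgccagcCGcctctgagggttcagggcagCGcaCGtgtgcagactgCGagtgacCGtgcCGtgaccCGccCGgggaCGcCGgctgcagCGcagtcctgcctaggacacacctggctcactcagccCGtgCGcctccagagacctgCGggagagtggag
The Bmp4 window holds 11 CpG and is 63.2% G and C, and the Bmp6 window holds 22 CpG and is 68.8% G and C. The medians over the same window of all 32851 promoters of the table are 6 CpG and 52.4%. Searched on both strands, the letters of the E-box (CACGTG) occur in both windows, against 6.02% of all promoters. This motif was added after the sequences had been read. The NF-κB motif (1.41% of all promoters), the TATA box (TATAAA, 12.4%), the TEAD motif (GGAATG, 12.6%), the AP-1 motif (TGANTCA, 6.75%) and the Smad GC box (GGCGCC, 9.59%) occur in neither window. A match or its absence describes these letters only.

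A difference of more than 2-fold was passed upwards by 0.668% and downwards by 1.83% of the 14222 detected genes. Among the 10 BMP genes, 1 passed it upwards and 0 passed it downwards. Bmp4 passed it by under 2 within-array errors, since its log2 ratio less 2 errors was 0.87. The genes closest to Bmp4 in log2 ratio among those above the 75th percentile were Grem1 (1.51) and Nrep (1.35) just above it and Sfrp2 (1.25) and Efemp1 (1.24) just below it. This likeness is that of 1 difference between 2 arrays.

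A smaller size, 2 within-array errors, was passed upwards by 7.64% and downwards by 9.38% of the detected genes. Of the 10 BMP genes, 2 passed it upwards, Bmp4 and Gdf5, and 1 passed it downwards, Bmp7. All 3 are ligands, and 0 of the 5 receptors passed it.

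Gdf5, a ligand that marks the joint interzone and signals mainly through Bmpr1b, was higher on both of its probes. Probe A_66_P127070 for NM_008109 went from 5205 to 9212 in intensity, with a log2 ratio of 0.82 (error 0.20). Probe A_55_P2131831 for the same transcript went from 584 to 1063, with a log2 ratio of 0.86 (error 0.20). The ratios of both probes thus lay within 1 error of each other, at 1.77-fold and 1.82-fold. However, the second spot had 3 neighbours of 27 that were more than 2-fold lower, which counts as a disturbed area. The median log2 ratio of neighbours well above background on at least 1 array was -0.41 there and -0.07 around the first spot. Gdf5 ranked 182 of the 14222 detected genes.

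Bmp7, also called osteogenic protein 1, moved the other way. The intensity of probe A_52_P278354 for NM_007557 was 1156 before loading and 713 at 24 h. The log2 ratio was -0.70 (within-array error 0.20), 1.62-fold lower, and 4.09% of detected genes had a lower one. Within 100 µm of this spot, 1 neighbour of 27 was higher and 2 were lower by more than 2-fold. Bmp7 had 1 probe on the array.

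The scale between arrays cancels when the log2 ratio of one gene is taken from that of another, though the sign of a single ratio still depends on it. The log2 ratio of Bmp4 less that of Bmp7 was 1.97 (combined within-array error 0.29), and that of Gdf5 less that of Bmp7 was 1.52 (0.29). Bmp4 and Gdf5 differed less from each other, by 0.45 (0.29), which is under 2 combined errors.

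**Figure D2:**
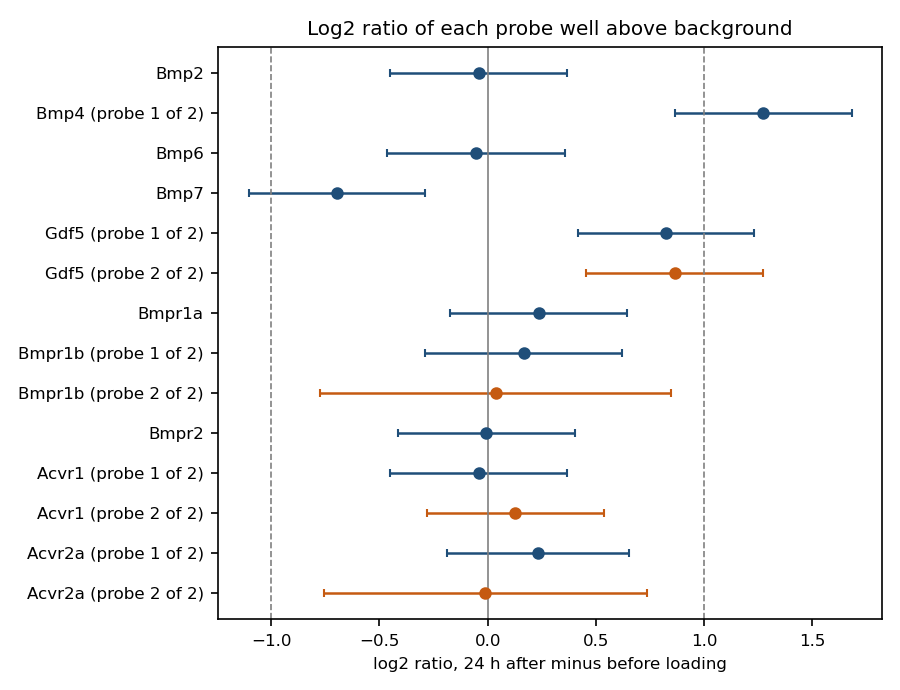
Log2 ratio (24 h after minus before loading) of the 14 probes well above background on both arrays, with bars of 2 within-array errors and dashed lines at 2-fold. The bars of Bmp4, both Gdf5 probes and Bmp7 lie off 0, and those of the 10 other probes cross it.

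Bmp2 and Bmp6 differed by less than their within-array error. Bmp2, a close relative of Bmp4 in sequence, went from an intensity of 393 to 382 on its probe A_55_P2041961 (NM_007553), with a log2 ratio of -0.04 (error 0.21). Bmp6, which belongs to the same subgroup as Bmp7, had 471 and 454 on probe A_52_P413646 (NM_007556), a log2 ratio of -0.05 (0.21). Bmp4 stood apart from its relative Bmp2 by a difference of log2 ratios of 1.32 (combined error 0.29). Bmp2 and Bmp6 were above 0 with median or spike-in scaling, which shift all genes alike. They were below 0 with loess, quantile normalization and normexp correction.

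Among the type I receptors, Bmpr1a, the main BMP receptor of chondrocytes together with Bmpr1b, had intensities of 2792 before loading and 3285 at 24 h on probe A_52_P17146 (NM_009758). Its log2 ratio of 0.24 was above its within-array error of 0.20 and below 2 errors. Bmpr1b, the preferred type I receptor of Gdf5, had 85.6 and 96.0 on probe A_66_P136389 (NM_007560), a log2 ratio of 0.17 (within-array error 0.23). Its dimmer probe A_52_P586944 had 27.8 and 28.5, a log2 ratio of 0.04 with a wider error of 0.40. These dim spots leave room for larger differences, as 2 errors of the dimmer probe span log2 ratios from -0.77 to 0.85.

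Acvr1, also called ALK2, the type I receptor that binds Bmp6 and Bmp7, had intensities of 6028 and 5852 on probe A_55_P2159710 (NM_001110204), a log2 ratio of -0.04 (within-array error 0.20). Its dimmer probe A_55_P2102693 had 884 and 965, a log2 ratio of 0.13 (0.20). The probes differed in sign, both within 1 error of 0, and Acvr1 showed no direction.

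Of the type II receptors, Bmpr2, the one that binds BMPs and not activins, gave the smallest difference of the 10 genes. The intensities of probe A_51_P419389 (NM_007561) were 539 and 536, and the log2 ratio was -0.01 (error 0.20). Acvr2a, a type II receptor shared by activins and BMPs, had 148 and 174 on probe A_66_P113760 (NM_007396), a log2 ratio of 0.23 (within-array error 0.21). Its dimmer probe A_52_P664656 did not show this difference, with 29.7 and 29.4 and a log2 ratio of -0.01 (0.37). The log2 ratios of the 5 receptors ranged from -0.04 to 0.24, against -0.70 to 1.28 for the 5 ligands.

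**Figure D3:**
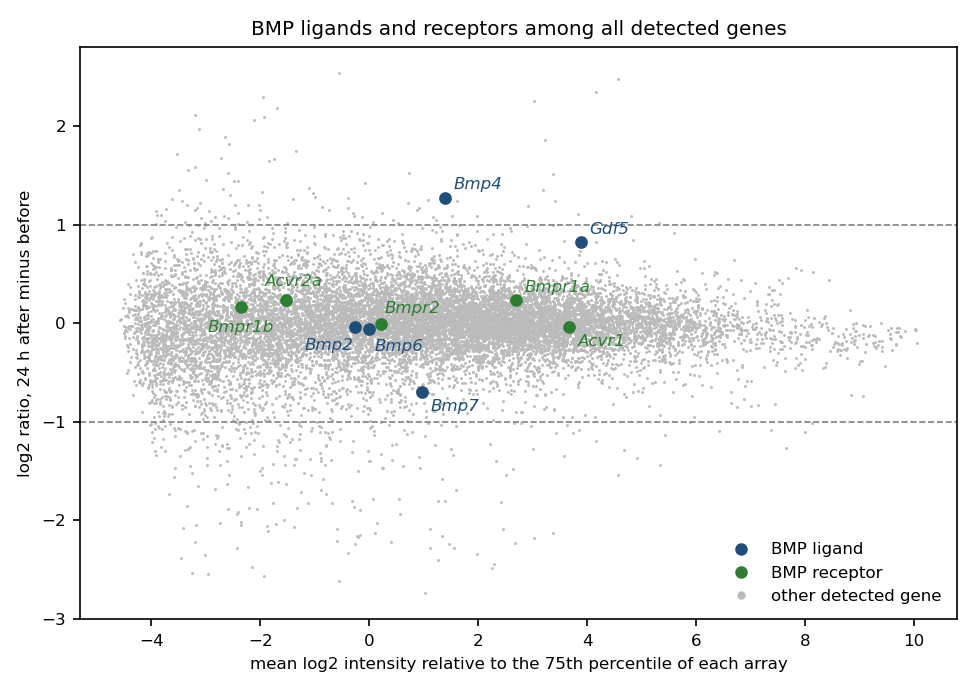
Log2 ratio (24 h after minus before) against the mean log2 intensity, with the 75th percentile of an array at 0, for the 14222 detected genes (grey), with the 5 ligands in blue, the 5 receptors in green and dashed lines at 2-fold. Bmp4 lies above the upper line, Gdf5 just under it and Bmp7 below most genes, while the receptors lie within the bulk.

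Each of the 10 genes was detected at both times. Their median log2 ratio was 0.08, beside -0.01 over all detected genes, and 5 were above and 5 below 0. This split depends on the scaling: 9 were above 0 and Bmp7 alone below it with median or spike-in scaling, which add a constant to every log2 ratio. The middle of the distribution of all detected genes, from percentile 5 to percentile 95, ran from -0.63 to 0.51. Bmp4, Gdf5 and Bmp7 lay outside this range and the other 7 genes inside it.

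The rest of the pathway was described by lists of genes with a known role. Of 21 other ligands of the family, 14 were detected and 0 passed 2-fold, with a median log2 ratio of -0.12. Of the 14, 4 passed 2 within-array errors upwards and 2 downwards, beside 7.64% and 9.38% of all detected genes. The highest log2 ratio among the 14 was 0.86 for Bmp3, which opposes other BMPs. The lowest was -0.46 for Inhba, the activin A subunit. Gdf6 and Gdf11 were well above background at 24 h only, with intensities of 62.3 and 96.1. These were 3.60-fold and 5.56-fold higher than the lowest signal well above background before loading, 17.3. Some brighter spots were not well above background, such as that of Tnmd at 40.3 before loading. The folds are therefore not strict lower bounds. Gdf6 and Gdf11 are single dim spots and gave no ratio.

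Of the 7 other receptors of the family, 6 were detected and 0 passed 2-fold, from -0.33 for Acvr1b to 0.26 for Acvr2b. Of the 7 co-receptors and pseudoreceptors, 5 were detected and 0 passed 2-fold, from -0.10 for Rgma to 0.24 for Tgfbr3.

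Among pathway genes detected at both times, other than the 10 BMP genes, 1 antagonist passed 2-fold upwards and 1 downwards. Over all detected genes, 0.668% passed it upwards and 1.83% downwards. Of 19 extracellular antagonists and modulators, 17 were detected, 14 of them with a log2 ratio above 0. Their median was 0.22, beside -0.01 over all detected genes. Of the 17, 3 passed 2 within-array errors upwards and 2 downwards, beside 7.64% and 9.38% of all detected genes. The sign of a small ratio depends on the scaling. Grem1, which binds Bmp2, Bmp4 and Bmp7, passed 2-fold upwards, with intensities of 2850 and 8125 and a log2 ratio of 1.51 (within-array error 0.20). Fst, follistatin, which binds activins and BMPs, passed 2-fold downwards with intensities of 4180 and 2074 and a log2 ratio of -1.01 (0.20). Fst came inside 2-fold under median scaling, spike-in scaling, quantile normalization, loess and normexp correction. Of the 7 proteases that process BMPs or their antagonists, 6 were detected and 0 passed 2-fold, from -0.19 for Pcsk5 to 0.35 for Furin.

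Inside the cell, the 10 Smads and Smad ubiquitin ligases were all detected, and 0 passed 2-fold. Their median log2 ratio was -0.10. Smad7, an inhibitory Smad, had the lowest log2 ratio, -0.75 (within-array error 0.21), with intensities of 357 and 212, and Smad5, a BMP-activated Smad, the highest, 0.24. The dimmer probe of Smad5 had a log2 ratio of -0.40, so that its direction differed between probes. Of 16 genes known to respond to BMPs, 15 were detected and 0 passed 2-fold, with a median of -0.05. Id3, a direct target of BMP Smads, had the highest log2 ratio, 0.62 (within-array error 0.20), with intensities of 5183 and 7955, and Smad7 the lowest. Hey1, a transcriptional repressor, was the other gene of this list above 2 within-array errors, at 0.61. Of the 15 detected genes, 7 were above and 8 below 0.

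**Figure D4:**
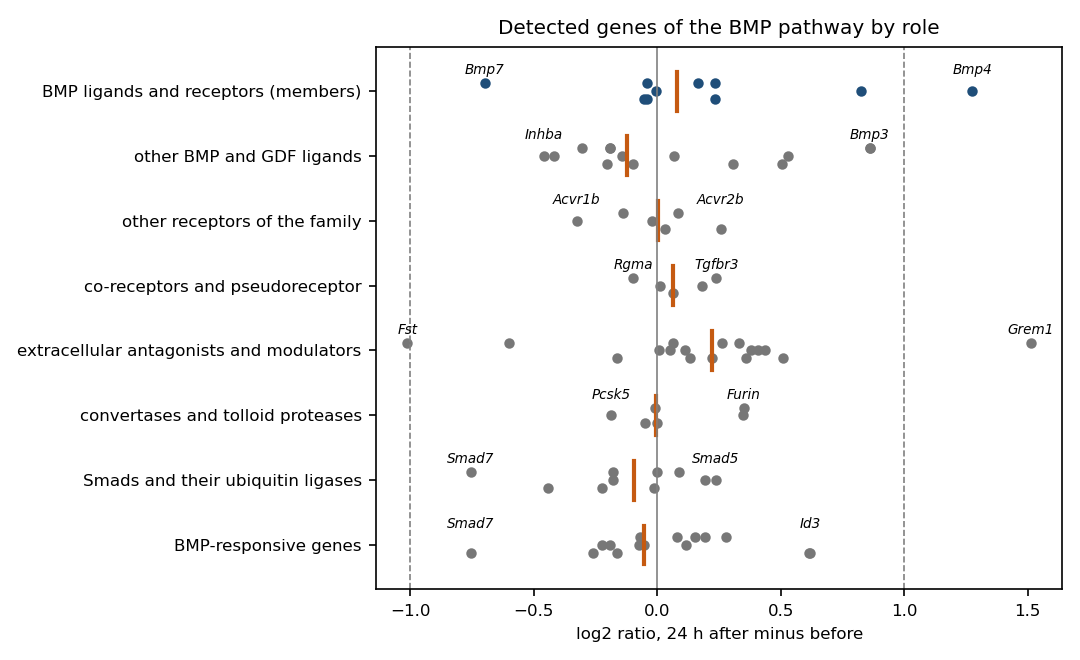
Log2 ratio (24 h after minus before) of the detected genes of each list, 1 point a gene, with the median as a bar, dashed lines at 2-fold and the highest and lowest gene of each list named. Bmp4 and Grem1 lie above 2-fold and Fst at the lower line, and the receptor, Smad and target lists stay inside.

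The log2 ratios of the 10 genes were recomputed under 7 other ways of processing. Bmp4 stayed above 2-fold in each, between 1.18 with normexp background correction and 1.37 with median scaling. Only 5 of the 7 change the scaling or the background. Among these, median and spike-in scaling add a constant to every ratio, which raised Bmp4 to 1.37 and 1.36. They could therefore not bring Bmp4 under 2-fold, which leaves quantile normalization, loess and normexp correction. The deposited value table holds the same intensities rounded. A mean over detected probes cannot move Bmp4, Bmp7 or any gene without another detected probe. Gdf5 lay between 0.79 and 0.92 and Bmp7 between -0.70 and -0.60, under the same 7. Bmpr1a, Bmpr1b and Acvr2a were above 0 in all 7, though Acvr2a was below 0 on its dimmer probe. The signs of Bmp2, Bmp6, Bmpr2 and Acvr1 changed with the scaling.

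**Figure D5:**
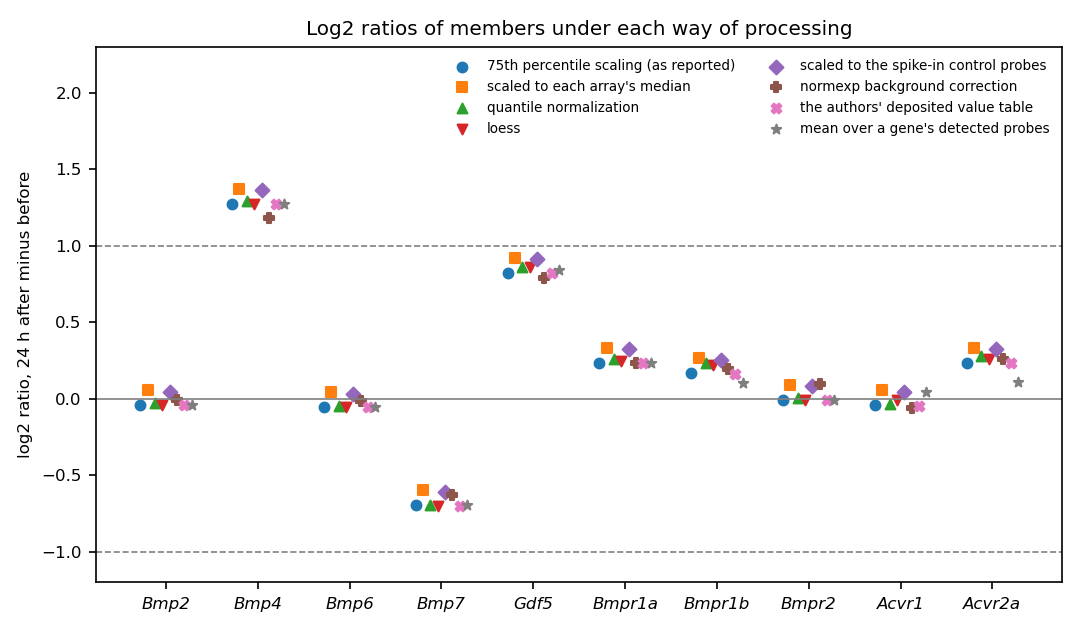
Log2 ratio (24 h after minus before) of each of the 10 genes as reported and under 7 other ways of processing, with dashed lines at 2-fold. Bmp4 lies above 1 and Gdf5 and Bmp7 keep their direction in all 8, while Bmp2, Bmp6, Bmpr2 and Acvr1 lie on both sides of 0.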

How the data were processed

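Gene expression of chondrocytes was measured in 2 samples, unloaded and at 24 h from loading, on SurePrint G3 Mouse Gene Expression arrays. Spot intensity was deposited by the authors as Agilent Feature Extraction 10.10.1.1 gives it, background-subtracted and not normalized between arrays, with the software's error and flags. Their value table holds the same intensities rounded, within 0.497%. Here, control spots and spots flagged as outliers were left out, spots of a probe were averaged, and each array's 75th percentile was subtracted from the log2 intensity. Accessions without version were named through a RefSeq table of GRCm38.p6, which matched 27235 of 55678 probes. Promoter coordinates are of that assembly, not of the array's own design. The brightest probe stands for a gene, and a gene is detected when all spots of that probe pass the software's background flag at both times.

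The members, the gene lists and the tests were chosen with earlier results of these data known. Named genes are all members with every probe, the highest and lowest gene of each pathway list, list genes past 2-fold and the genes nearest to Bmp4. Gdf6, Gdf11, Hey1 and cell type markers under 2-fold are named outside this rule, after their values were seen. Genes seen on 1 array have a fold against the lowest signal well above background (17.3 before loading, 17.8 at 24 h). It is not a strict bound, since some brighter spots do not pass the background flag. Alternatives were run with limma 3.58.1 (R 4.3.3) and in Python 3.11.15 (numpy 2.4.6, scipy 1.17.1, pandas 2.3.3).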

Additional observations from a re-analysis of the deposited data

How the results depend on the processing

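Among the 74 log2 ratios recomputed for the 10 BMP genes under 8 alternatives, 1 moved by more than the within-array error of the reported value. Part of the 74 could not move that far. These are the rounded deposited values, and the means over probes for genes without another detected probe. Median scaling and spike-in scaling each added a constant to every ratio. Both constants were smaller than the within-array error of each of the 10 genes, so these values could not move that far either. Acvr2a had 0.23 (error 0.21) on its brightest probe and -0.010 on its second, whose own error of 0.37 is larger than the move, and the cause was not tested. When 2-fold had to be passed by more than 2 within-array errors, 0 of the 10 genes were more than 2-fold higher, which leaves out Bmp4 by construction. The counts of members past 2-fold and their median were otherwise within 1.5 times or 1 within-array error of the reported values. This includes the run without spots in disturbed areas of the array surface. Changing the filter on dim probes could not alter them, since all 10 genes were detected at both times. Of the values for the other pathway lists, 181 stayed and 8 moved. Of these, 6 concern the antagonists past 2-fold downwards, where Fst dropped out under 5 scalings or corrections (0 genes) and a dim gene was added without a filter (2 genes). The other 2 concern Gdf6 and Gdf11, which count as higher once 1 array is enough or no filter is set. Median scaling and scaling to spike-in controls raised the median of all detected genes from -0.01 to 0.08 and 0.07. Normexp used the median spot signal, since the files hold no mean. Signal over background limits Bmpr1b and Acvr2a and leaves the second Bmp4 probe with no ratio. No paired analysis was possible because neither group holds a second array.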
